A study of Mus musculus with 12 samples.

Results

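The neutrophil and blood monocyte genes described here are S100a8, S100a9, Csf3, Csf3r, Cxcr2, Plac8, Ccr2, Clec4e and Mefv, 9 of the 27398 gene names on the array. Their 11 probes were taken by gene name from the 41174 transcript probes, and a probe was kept if, in 1 group or more, each of the 3 arrays measured it well above background. Of the 11 probes, 8 were kept, 1 for each gene except Ccr2, for which neither probe was kept. Cxcr2 had 1 of its 2 probes kept. Over the whole array, 27681 probes were kept. Below background is used here for any signal that was not flagged as well above background.

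RNA was measured in hippocampus of male C57BL/6N mice aged 12 weeks, on one-colour microarrays. All mice, controls included, had received 50 nl of 20 mM kainate, a glutamate receptor agonist that causes recurrent seizures, in the left dorsal hippocampus 3 weeks earlier. The groups were LPS at 4 h, saline at 4 h, LPS at 24 h and saline at 24 h, with 3 mice in each. Lipopolysaccharide (LPS, a cell wall component of Gram-negative bacteria) was given by 1 intraperitoneal injection of 100 µg/kg, and control mice received saline by the same route. The side that was dissected is not given in the sources used here, and a group without kainate was not analysed here.

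Neutrophils are short-lived granulocytes that the bone marrow releases in large numbers when granulocyte colony-stimulating factor, the product of Csf3, acts on its receptor Csf3r. They follow CXC chemokines through Cxcr2, whereas inflammatory monocytes follow CC chemokines through Ccr2. Both cell types are rare in healthy brain tissue and can gather in its vessels after a systemic inflammatory stimulus, and microglia and endothelial cells can make several of the same transcripts. In a tissue extract such as this one, more cells of a type and more RNA per cell cannot be told apart.

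S100a8 and S100a9 encode the partners of the calcium-binding heterodimer calprotectin, a major cytosolic protein of neutrophils, and their genes are neighbours. Their probes lie on chromosome 3 of the mouse build mm9, at positions 90473778 to 90473837 for S100a8 and 90496585 to 90496644 for S100a9. The probes are 22.7 kb apart and share no run of bases longer than 6. The 250 bases before the annotated start of these genes and of Clec4e, from RefSeq (GRCm38.p6), are printed because these transcripts rose at 4 h and the windows hold motif matches. Capitals mark matches to 4 motifs searched on both strands, which are NF-kappaB (by name), C/EBP (TTGCNNAA), STAT (TTCNNNGAA) and an ETS motif of PU.1 type (GAGGAA).
S100a8 promoter, chr3:90668821-90669070, plus strand: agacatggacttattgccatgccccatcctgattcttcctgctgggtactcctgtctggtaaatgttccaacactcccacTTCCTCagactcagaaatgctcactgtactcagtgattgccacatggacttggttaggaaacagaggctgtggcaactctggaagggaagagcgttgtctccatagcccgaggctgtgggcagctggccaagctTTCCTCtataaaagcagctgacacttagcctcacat
S100a9 promoter, chr3:90695722-90695971, minus strand: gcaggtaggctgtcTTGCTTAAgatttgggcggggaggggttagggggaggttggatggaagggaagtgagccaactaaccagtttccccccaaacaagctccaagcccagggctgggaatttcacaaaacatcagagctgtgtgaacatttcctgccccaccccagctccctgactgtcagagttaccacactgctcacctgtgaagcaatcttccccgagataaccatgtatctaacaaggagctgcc
Clec4e promoter, chr6:123289872-123290121, minus strand: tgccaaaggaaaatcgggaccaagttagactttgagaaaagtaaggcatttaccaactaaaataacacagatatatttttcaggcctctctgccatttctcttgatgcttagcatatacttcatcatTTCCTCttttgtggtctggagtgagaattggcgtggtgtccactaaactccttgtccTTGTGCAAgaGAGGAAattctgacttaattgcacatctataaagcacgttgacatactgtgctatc

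The capitals in the S100a8 window are 2 ETS matches on the opposite strand, 170 to 165 and 36 to 31 bases before the start. S100a9 held 1 C/EBP match, 236 to 229 bases before its start. Clec4e held a C/EBP match 66 to 59 bases before its start and ETS matches at 123 to 118 and at 56 to 51 bases. RefSeq promoters were found for 8 of the 9 genes, with Csf3 named only. Of those 8 genes, 5 held the ETS letters (Clec4e, Csf3r, Cxcr2, Plac8 and S100a8) and 3 the C/EBP letters (Clec4e, Plac8 and S100a9), while 0 held the NF-kappaB or the STAT letters. Among all 32851 promoters of the same length, the shares were 23.3% for ETS, 9.56% for C/EBP, 3.9% for NF-kappaB and 7.02% for STAT. A match is a run of letters and was not tested as a binding site.

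Each level below is the processed intensity of a probe as a percent of the 75th percentile of its array. That percentile was 702 ± 35.6 intensity units in LPS 4 h arrays and 385 ± 12.4 in saline 4 h arrays, and 864 ± 124 in LPS 24 h arrays and 798 ± 61.2 in saline 24 h arrays (SD, n = 3 each). In the same order, 60.4%, 55.4%, 70.5% and 66.3% of spots were well above background, and 0 were saturated. The correlation between arrays of a group was 0.993 to 0.997. Every slide held 1 LPS and 1 saline array of the same time, so that LPS and saline could be set against each other within a slide. The 4 h arrays and the 24 h arrays were scanned in separate sessions, so that time and session cannot be told apart. The hippocampal neuron markers used to check the tissue were all measured (9 of 9). The probes of the other members lie, on mm9, at 98564614 to 98564673 of chromosome 11 (Csf3), 125721294 to 125721353 of chromosome 4 (Csf3r), 74206323 to 74206382 and 74206886 to 74206945 of chromosome 1 (Cxcr2) and 100982870 to 100982929 of chromosome 5 (Plac8). Those of Ccr2 lie at 124022948 to 124023007 and 124023519 to 124023578 of chromosome 9, that of Clec4e at 123232878 to 123232937 of chromosome 6 and that of Mefv at 3707274 to 3707333 of chromosome 16. Which exon or UTR a probe lies in was not analysed here. Levels of different probes are not compared, because probes differ in brightness. For the same reason, a level summed over a list weighs its brightest probes most and does not measure an amount of cells.

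At 4 h after LPS, 6 of the 8 measured genes were higher than in saline, 1 was lower (Csf3r) and 1 did not pass (Cxcr2). A call was an adjusted p under 0.05 in limma with Benjamini-Hochberg adjustment over all probes, and every adjusted p below is from that test. By the same rule 31.4% of all tested probes were higher at 4 h and 39.8% were lower, so that a call alone is common in this comparison and the size of the change says more. A rise of at least 2-fold was called in 8.76% of all probes, and all 6 members that rose at 4 h exceeded that size. For those 6, all 3 LPS arrays lay above all 3 saline arrays (32.6% of all probes). Csf3, Cxcr2, Clec4e and Mefv passed the filter through LPS groups alone. A rise in those groups was therefore partly set by the filter, and the counts and medians given here include these genes. At 24 h, 7 of the 8 were higher and 1 was lower (Csf3, whose arrays were all below background), against 19.2% and 23.7% of all probes. All 3 LPS arrays lay above all 3 saline arrays for those 7 genes, as for 25.3% of all probes. A fitted rise of at least 2-fold was called in 2.56% of all probes at 24 h and in 6 members, but for Cxcr2 and Clec4e, dim in saline, the bound was lower than that. The median log2 difference of the 8 kept probes was 3.39 at 4 h and 1.72 at 24 h, against −0.09 and −0.02 for all probes. With genes that were below background in saline held at their lower bound, and the gene dim in both groups left out, the medians were 3.13 and 1.12 over 7 genes each.

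**Figure D1:**
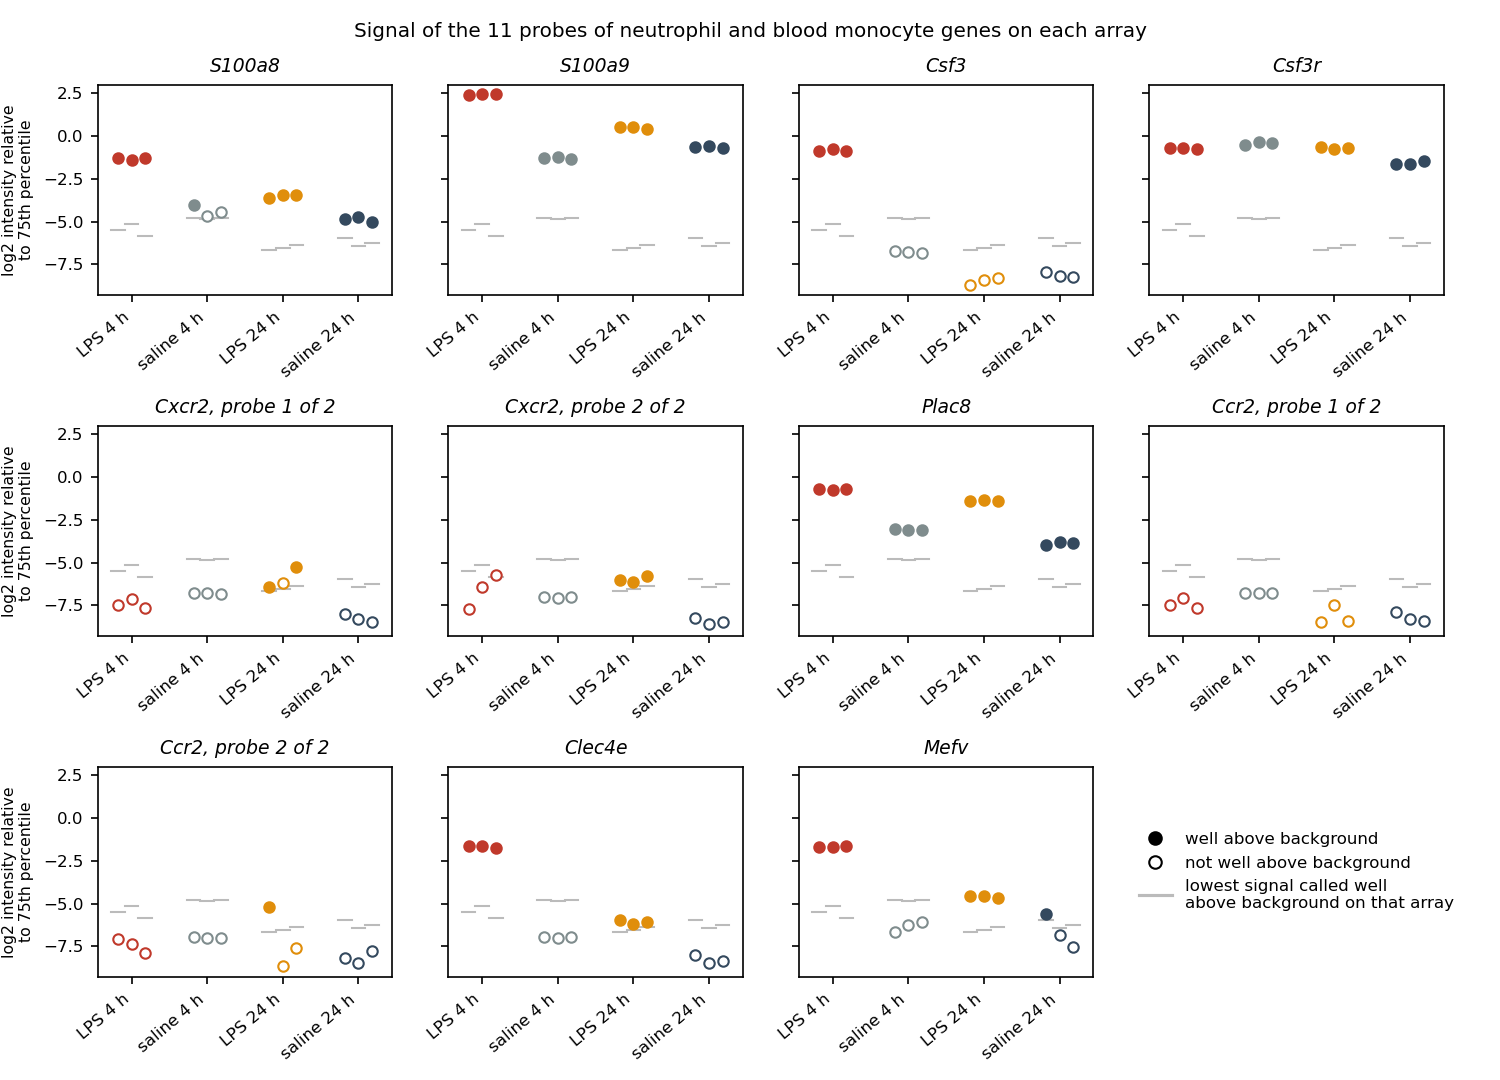
Each point is 1 array, in panels for the 11 probes, with groups from left to right LPS 4 h, saline 4 h, LPS 24 h and saline 24 h, and the vertical axis gives log2 intensity relative to the array's 75th percentile; open points are not well above background, and grey lines mark the lowest signal that counted as such on the array. S100a9 averages 2.42 on LPS 4 h arrays and −1.28 on saline 4 h arrays, and Ccr2 has 1 filled point, on an LPS 24 h array.

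S100a9 had the largest rise at 4 h among the members measured on every array. Its level was 521%, 537% and 545% of the 75th percentile on the LPS 4 h arrays and 41.6%, 42.9% and 38.9% on the saline 4 h arrays. The 2 sets of arrays lay far apart, and the log2 difference was 3.70 ± 0.05 (SE, n = 3 each, adjusted p = 5.46e-11). This was rank 7 among the 21469 probes measured on all arrays of both 4 h groups. At 24 h the level was 141%, 144% and 132% after LPS and 63.4%, 66.6% and 62.4% after saline, again without overlap, with a log2 difference of 1.12 ± 0.05 (adjusted p = 1.40e-07). Within slides the log2 difference was 3.60 to 3.79 at 4 h and 1.08 to 1.16 at 24 h.

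S100a8, the partner of S100a9, rose at both times from a level near background in saline. It measured 41.3%, 38.2% and 40.4% after LPS at 4 h and 6.14%, 3.84% and 4.53% after saline, where only 1 of the 3 arrays was well above background. The log2 difference was 3.07 ± 0.15 (adjusted p = 5.68e-08). At 24 h it measured 8.10%, 9.19% and 9.24% after LPS and 3.53%, 3.83% and 3.06% after saline, all above background, with a log2 difference of 1.35 ± 0.15 (adjusted p = 8.36e-05). No LPS array of either time overlapped a saline array. With the normexp background correction, which adds a constant of 50 to every signal, the S100a8 difference was 1.25 at 4 h and 0.48 at 24 h, and still passed (adjusted p = 3.67e-06 and 0.00920).

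Csf3, the growth factor that drives neutrophil production and release, was measured in the LPS 4 h group alone. Its level there was 53.7%, 59.1% and 54.5%, whereas all saline 4 h arrays were below background. The rise was at least 15.6-fold, taking for each saline array its lowest signal among probes well above background (adjusted p = 1.74e-10). The log2 difference was 2.08 with normexp and 2.57 in the deposited matrix, both smaller than that bound. At 24 h Csf3 was well above background on 0 of 3 LPS arrays and 0 of 3 saline arrays, and no fold is given there. The call of a lower Csf3 at 24 h (adjusted p = 0.0238) therefore compares values below background.

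Csf3r, the receptor for that growth factor, was the member that was lower at 4 h. It measured 60.7%, 62.5% and 58.7% after LPS and 69.7%, 77.7% and 74.8% after saline, with no overlap, and the log2 difference was −0.29 ± 0.06 (adjusted p = 0.00175). The median of all probes was itself −0.09, which leaves −0.20 relative to it. The direction rests on the scaling between arrays, since the unscaled intensities were 449, 436 and 393 on LPS 4 h arrays and 259, 300.2 and 297 on saline 4 h arrays, a log2 difference of 0.58 (adjusted p = 0.00106, setting added after seeing the data) when the median of all probes was 0.78. At 24 h Csf3r was higher after LPS, at 64.2%, 57.9% and 61.6%, against 32.2%, 31.6% and 35.7% after saline (0.88 ± 0.06, adjusted p = 3.18e-06).

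The LPS arrays of Csf3r had like levels at both times, 60.6% ± 1.92 at 4 h and 61.2% ± 3.16 at 24 h, while the saline arrays averaged 74.1% ± 4.02 and 33.2% ± 2.21 (SD, n = 3 each). The lower saline level at 24 h was called (−1.16 ± 0.06, adjusted p = 3.73e-08). When the saline arrays of the other time served as controls, the sign of Csf3r turned, to 0.87 at 4 h and −0.27 at 24 h (adjusted p = 6.80e-07 and 0.00200). Without scaling between arrays, the saline difference was −0.11 and was not called (adjusted p = 0.418).

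Cxcr2, the receptor through which neutrophils follow CXC chemokines, was dim throughout. On its kept probe, all 3 LPS 24 h arrays were well above background, at 1.53%, 1.41% and 1.79%, and no other array was. The rise at 24 h was at least 1.17-fold over saline (adjusted p = 0.000778), and it was not called with the normexp correction (adjusted p = 0.646). Its other probe was well above background on 2 of 3 LPS 24 h arrays and on 0 of the remaining arrays. At 4 h no array of either group was well above background (adjusted p = 0.370), so that no fold is given. A higher Cxcr2 was called there without LPS 4 h replicate 1 (0.95, adjusted p = 0.00226), with quantile normalization (1.25, adjusted p = 0.0318), with no scaling (1.28, adjusted p = 0.00426) and against the saline 24 h arrays (1.81, adjusted p = 0.00209), each between values not well above background.

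Ccr2, the receptor of inflammatory monocytes for the chemokine Ccl2, had no usable level. Its first probe was below background on all 12 arrays. Its second probe was well above background on 1 array, replicate 1 of LPS 24 h, at 2.74% and an intensity of 26.1. No test was made for Ccr2, and below background is a limit of these probes rather than a count of 0.

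Plac8, a small cysteine-rich protein abundant in granulocytes and monocytes, was higher after LPS at both times. It measured 62.0%, 58.0% and 61.8% after LPS at 4 h and 12.3%, 11.8% and 11.7% after saline (2.34 ± 0.05, adjusted p = 4.65e-10). At 24 h it measured 38.3%, 39.3% and 37.4% after LPS and 6.24%, 7.11% and 6.90% after saline (2.51 ± 0.05, adjusted p = 1.70e-09). The LPS arrays of each time stood clear of the saline arrays, and within slides the log2 difference was 2.30 to 2.40 at 4 h and 2.44 to 2.62 at 24 h. By size, the 24 h rise was rank 17 of the 25826 probes measured on all arrays of both 24 h groups, against rank 84 of 21469 at 4 h. With the normexp correction the differences were 1.43 and 1.69.

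Clec4e encodes Mincle, a receptor of myeloid cells for mycobacterial glycolipids and for products of dying cells. It measured 31.8%, 32.6% and 29.3% after LPS at 4 h and was below background on all saline 4 h arrays, a rise of at least 8.75-fold (adjusted p = 3.41e-10). The 4 h log2 difference was smaller than that bound with normexp (1.53) and in the deposited matrix (2.01). At 24 h the LPS arrays measured 1.61%, 1.38% and 1.51%, still well above background, while all saline arrays were below it. That rise was at least 1.12-fold (adjusted p = 3.45e-07), and it was not called with the normexp correction (adjusted p = 0.500) or in the deposited matrix (adjusted p = 0.138).

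Mefv encodes pyrin, an inflammasome sensor of neutrophils and monocytes. Its level was 31.1%, 30.6% and 32.0% after LPS at 4 h, with all saline 4 h arrays below background, and the rise was at least 8.75-fold (adjusted p = 2.22e-06). With normexp the 4 h log2 difference was 1.36, and in the deposited matrix 1.80, again below the bound. At 24 h it measured 4.31%, 4.33% and 3.93% after LPS and 2.05%, 0.861% and 0.540% after saline, of which only the first was above background. The arrays did not overlap, and the log2 difference was 2.09 ± 0.39 (adjusted p = 0.00187). Within slides it ran from 1.07 to 2.86, and with the normexp correction it was 0.40 (adjusted p = 0.0148).

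**Figure D2:**
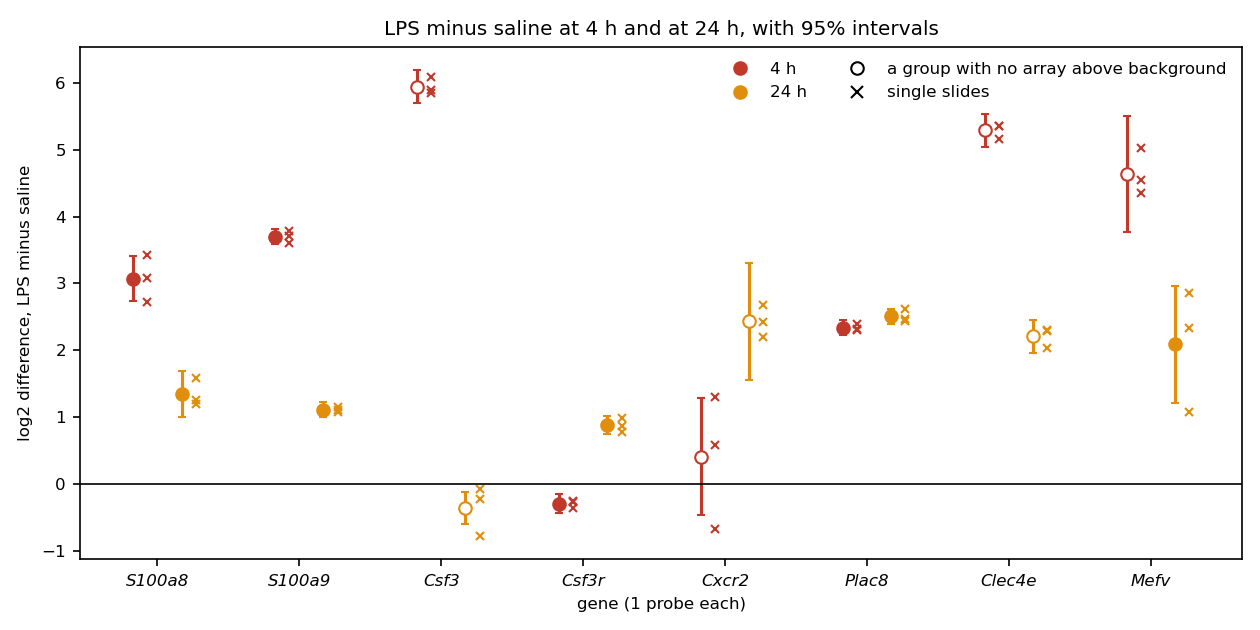
Log2 difference, LPS minus saline, for the kept probe of each gene at 4 h (red) and 24 h (orange), with 95% intervals of the limma fit as bars and the difference within each slide as crosses; open points have a group with no array above background, so their height is not a fold. Plac8 lies at 2.34 at 4 h and 2.51 at 24 h, S100a9 at 3.70 and 1.12, and Csf3r at −0.29 and 0.88.

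The responses at the 2 times were then set against each other as a difference of differences, which asks whether LPS acted by the same factor at 24 h as at 4 h. Of the 8 genes, 5 had a smaller response at 24 h (S100a8, S100a9, Csf3, Clec4e and Mefv) and 2 a larger one (Csf3r and Cxcr2), where 29% and 36.9% of all tested probes were called in those directions. The call for Cxcr2 was lost with normexp (0.36, adjusted p = 0.485), with quantile normalization (0.50, adjusted p = 0.523) and in the deposited matrix (0.10, adjusted p = 0.303). S100a9 differed by −2.58 ± 0.07 (adjusted p = 3.48e-09) and S100a8 by −1.72 ± 0.21 (adjusted p = 5.91e-05). Csf3r differed by 1.17 ± 0.09 (adjusted p = 1.39e-06). Its mean log2 level was −0.71 at 24 h and −0.72 at 4 h after LPS, but −1.59 and −0.43 after saline. With this scaling between arrays, nearly all of the Csf3r difference thus lies in the saline arrays. Without scaling between arrays the Csf3r difference was 0.41 and not called (adjusted p = 0.0576). The saline difference was then −0.11, and the LPS intensities were 449, 436 and 393 at 4 h and 613, 529 and 445 at 24 h. Where the difference lies therefore rests on the scaling.

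Plac8 did not pass, with a difference of 0.16 ± 0.07 (adjusted p = 0.0725) and a 95% interval of 0.00029 to 0.33. That interval shows how large a difference the arrays allow, and it does not show that the responses were equal. The call depended on the setting. A larger response at 24 h was called with quantile normalization (0.27, adjusted p = 0.0330), with median scaling (0.25, adjusted p = 0.0436) and without saline 24 h replicate 2 (0.20, adjusted p = 0.0336). The sign turned in the deposited matrix (−0.09, adjusted p = 0.401) and without scaling between arrays (−0.59, adjusted p = 0.00960), where the median of all probes was −0.66.

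Control levels also moved between times. Of the 8 genes, 6 were lower in saline at 24 h than in saline at 4 h and 1 was higher (S100a9, 0.64 ± 0.05, adjusted p = 6.69e-07), against 40.6% and 38.8% of all probes. Plac8 was lower by −0.82 ± 0.05 (adjusted p = 1.47e-07) and S100a8 by −0.46 ± 0.15 (adjusted p = 0.0187). Both turned positive without scaling between arrays, to 0.22 for Plac8 (adjusted p = 0.101) and 0.59 for S100a8 (adjusted p = 0.00579). The S100a8 call was also lost in the deposited matrix (−0.11, adjusted p = 0.135), with only the saline arrays in the fit (adjusted p = 0.0730) and without saline 24 h replicate 3 (−0.37, adjusted p = 0.0709). Csf3, Cxcr2 and Clec4e were below background on all saline arrays, so that their calls there carry no level.

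Other genes of the same cells, from lists chosen with earlier results of these data known, are given for context. Of all probes, 31.4% were called higher and 39.8% lower at 4 h, and 19.2% and 23.7% at 24 h. Each list count below is to be read against these shares. Of 24 neutrophil granule and surface genes, 19 were measured, and at 4 h LPS raised 15 of them and lowered 0, with a median log2 difference of 1.02, or 0.52 with dim genes at their bound. At 24 h 10 were higher and 0 lower, with a median of 0.54, or 0.22 with bounds. The 10 include Mmp8, which was well above background on 0 arrays of both 24 h groups, so that its call carries no level. They also include Retnlg and Ngp, well above background on 1 and 2 of 3 LPS 24 h arrays and on 0 saline 24 h arrays. Pglyrp1, which binds bacterial peptidoglycan, rose by 2.40 ± 0.06 at 4 h and 1.86 ± 0.06 at 24 h (adjusted p = 1.23e-09 and 2.75e-08). Lcn2, an iron-siderophore binder that astrocytes and endothelium also make, rose by 4.00 ± 0.14 and 2.92 ± 0.14 (adjusted p = 6.89e-09 and 2.92e-07). Fpr1, a receptor for bacterial formyl peptides, rose at least 5.55-fold and at least 3.88-fold (adjusted p = 4.43e-08 and 5.07e-06), and Fpr2, its relative, rose at least 2.37-fold at 4 h (adjusted p = 1.11e-06). Hdc, the histamine-forming enzyme, rose by 0.54 at 24 h (adjusted p = 7.16e-06). Elane, Camp and Stfa2l1 were not kept, and Ly6g, the defining surface marker of mouse neutrophils, and Cebpe were not analysed here. The summed level of the 19 genes was 4.22 to 4.32 times the 75th percentile in LPS 4 h arrays and 2.10 to 2.19 in saline 4 h arrays, and 3.03 to 3.13 in LPS 24 h arrays and 1.46 to 1.52 in saline 24 h arrays. Hdc, the brightest probe, weighs most in that sum. Its mean log2 level was 0.66 in LPS 4 h, 0.55 in saline 4 h, 0.14 in LPS 24 h and −0.40 in saline 24 h arrays. With this scaling between arrays, both 24 h levels of Hdc were thus below both 4 h levels. What these cells contributed to the members' levels was not tested.

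All 16 blood monocyte genes were measured, with 11 higher and 1 lower at 4 h (median 0.48, or 0.31 with bounds) and 15 higher and 0 lower at 24 h (median 0.81). Chil3, a chitinase-like protein of myeloid cells, rose by 4.21 ± 0.06 at 4 h and 2.46 ± 0.06 at 24 h (adjusted p = 8.36e-11 and 4.52e-09). Ms4a4c rose by 1.56 ± 0.06 and 2.18 ± 0.06 (adjusted p = 9.66e-09 and 5.57e-09). The adhesion receptor Cd44 rose by 0.94 ± 0.04 and 0.69 ± 0.04 (adjusted p = 1.91e-08 and 8.73e-07). Emilin2 rose by 0.87 at 4 h (adjusted p = 6.55e-08), and Ly6c2, a surface marker of inflammatory monocytes, by 1.14 at 24 h (adjusted p = 4.07e-08). At 4 h Ly6c2 was not called (−0.03, adjusted p = 0.500). Its mean log2 level was 4.13 in LPS 4 h, 4.17 in saline 4 h, 4.27 in LPS 24 h and 3.13 in saline 24 h arrays. With this scaling between arrays, the 24 h difference thus lies mostly in a lower level of the saline 24 h arrays. The Ly6c2 probe was well above background on all saline arrays, and which cells gave its signal was not tested. The summed level was 31.5 to 32.0 times the 75th percentile in LPS 4 h arrays and 28.0 to 28.5 in saline 4 h arrays, and 30.4 to 31.5 in LPS 24 h arrays and 15.6 to 16.3 in saline 24 h arrays. Ly6c2, the brightest probe, weighs most in that sum.

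Of 12 chemoattractants and growth factors of neutrophils and monocytes, 8 were measured, with Cxcl2, Cxcl3, Csf2 and Il17a not kept. At 4 h 5 were higher and 2 lower (median 0.63, or 1.01 with bounds), and at 24 h 5 were higher and 3 lower (median 1.20, or 0.79 with bounds). Cxcl1, a ligand of Cxcr2, rose at least 20.0-fold at 4 h and at least 2.59-fold at 24 h (adjusted p = 7.73e-10 and 3.70e-06). Cxcl5, another ligand of Cxcr2, fell by 1.16 ± 0.04 and by 0.92 ± 0.04 on the log2 scale (adjusted p = 7.25e-09 and 1.81e-07). Ccl2, the main ligand of Ccr2, rose by 2.72 ± 0.06 and 2.41 ± 0.06 (adjusted p = 5.02e-10 and 4.42e-09). Its mean log2 level was 2.86 in LPS 4 h, 0.15 in saline 4 h, 0.30 in LPS 24 h and −2.12 in saline 24 h arrays. With this scaling between arrays, the 24 h difference of Ccl2 thus comes with a lower saline level. Between saline times, 5 of the 8 genes were lower at 24 h and 2 higher. Ccl7 rose at least 8.51-fold at 4 h and by 2.61 at 24 h (adjusted p = 5.08e-09 and 1.11e-07), and Ccl12 by 2.55 at 24 h (adjusted p = 1.45e-09). Ccr2 itself was below background on all but 1 of the arrays.

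Among genes that act with Clec4e or Mefv, 15 of 16 were measured, with 9 higher and 5 lower at 4 h (median 0.15) and 10 higher and 0 lower at 24 h (median 0.72). Il1b, the cytokine that inflammasomes release, rose by 3.09 ± 0.05 at 4 h and 1.65 ± 0.05 at 24 h (adjusted p = 8.02e-11 and 6.87e-09). Casp4, the mouse caspase that senses cytosolic LPS, rose by 2.19 ± 0.06 and 1.38 ± 0.06 (adjusted p = 1.41e-09 and 1.31e-07). Clec4d, listed as a partner of Clec4e, rose at least 6.98-fold at 4 h and at least 3.01-fold at 24 h (adjusted p = 4.18e-06 and 0.000346). Pycard, the adaptor that pyrin recruits, fell by 0.60 at 4 h and rose by 0.89 at 24 h (adjusted p = 2.25e-06 and 8.17e-07). Clec7a, a lectin receptor related to Clec4e, fell by 1.00 at 4 h (adjusted p = 6.58e-09) and was not called at 24 h (−0.06, adjusted p = 0.185). Fcer1g, the signalling chain of Clec4e, rose by 1.00 at 24 h (adjusted p = 2.47e-08), as did the pore-forming Gsdmd (1.00, adjusted p = 3.51e-07). Between saline times, 13 of the 15 genes were lower at 24 h and 1 higher, with differences of −1.52 for Fcer1g and −2.12 for Pycard.

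Of 11 measured endothelial adhesion genes, which let leukocytes attach to the vessel wall, 4 were higher and 7 lower at 4 h (median −0.36), and 9 were higher and 0 lower at 24 h (median 0.66). Icam1 rose by 1.10 ± 0.04 and 1.03 ± 0.04 (adjusted p = 1.11e-08 and 8.98e-08), and Selp, the P-selectin that captures rolling neutrophils, rose at least 6.54-fold at 4 h (adjusted p = 4.66e-08). The mean log2 level of Icam1 was 3.68 in LPS 4 h, 2.59 in saline 4 h, 0.92 in LPS 24 h and −0.11 in saline 24 h arrays. Between saline times, 7 of the 11 genes were lower at 24 h and 3 higher. Ackr1, a chemokine-binding receptor of venules, rose by 1.33 at 4 h (adjusted p = 5.90e-08), Jam3 fell by 0.63 (adjusted p = 1.55e-07), and Esam rose by 0.66 at 24 h (adjusted p = 2.99e-07). Sele was not kept.

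**Figure D3:**
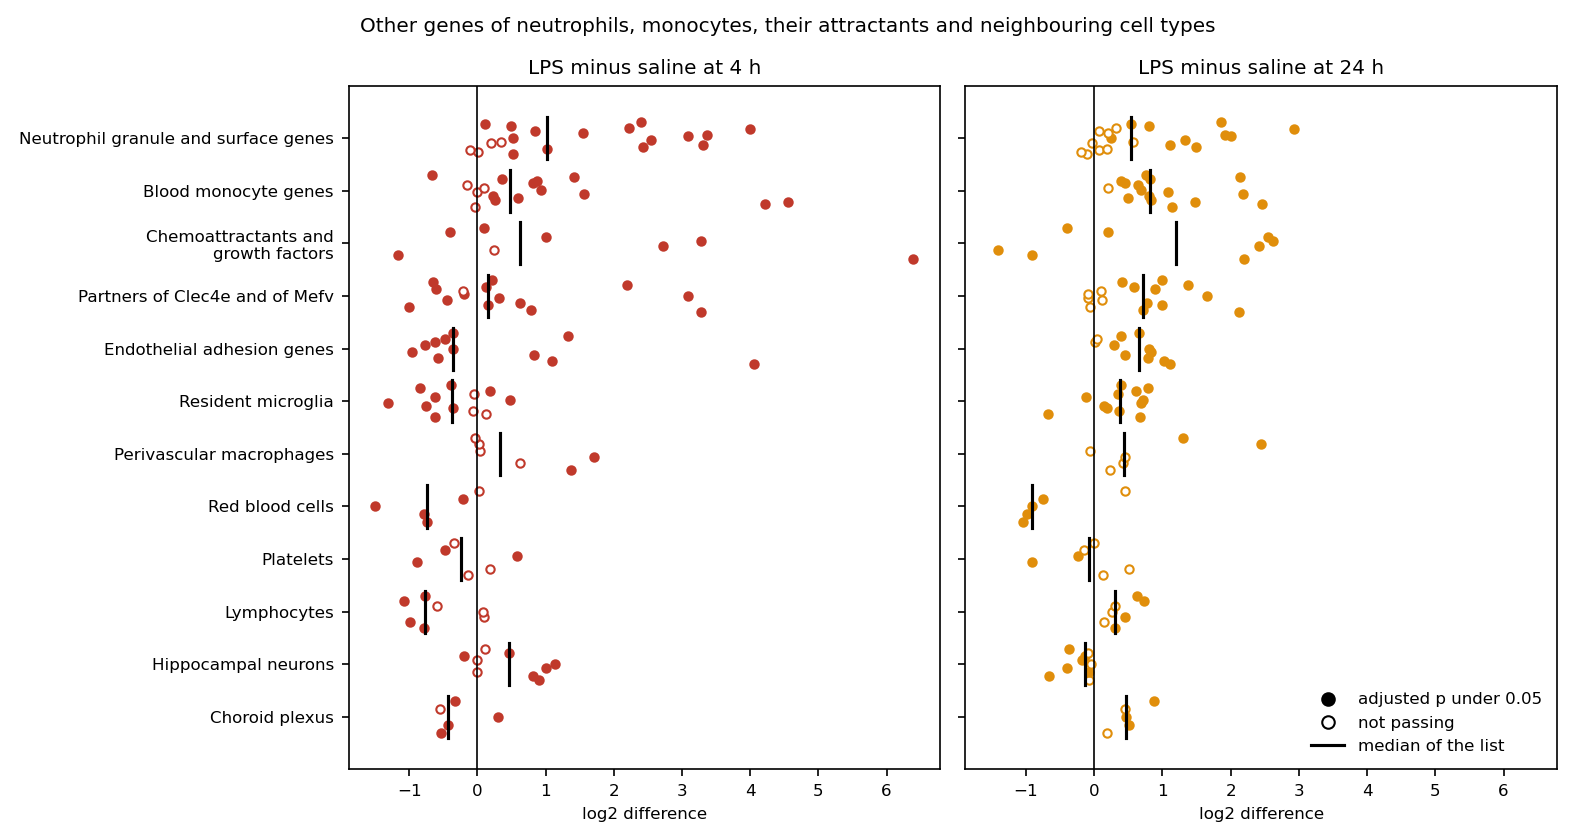
Each point is 1 gene of a list, placed on the horizontal axis by its log2 difference, LPS minus saline, at 4 h (left) and 24 h (right); filled points have an adjusted p under 0.05 in limma and black bars are list medians of the fitted values, without bounds. Neutrophil granule and surface genes have 15 of 19 points filled and above 0 at 4 h, and blood monocyte genes 15 of 16 at 24 h.

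Markers of other cells moved as well with the groups, as did many probes of the array (31.4% higher and 39.8% lower at 4 h, 19.2% and 23.7% at 24 h). Of 12 resident microglia genes, 2 were higher and 7 lower at 4 h (median −0.37), and 10 were higher and 2 lower at 24 h (median 0.38). Their summed level was 265 to 274 times the 75th percentile in LPS 4 h arrays and 340 to 362 in saline 4 h arrays, and 137 to 140.5 in LPS 24 h arrays and 104 to 109 in saline 24 h arrays. Red blood cell genes were lower at both times, 4 of 5 measured probes each (medians −0.73 and −0.91). Their summed level was 115 to 120 in LPS 4 h arrays and 281 to 292 in saline 4 h arrays, and 74.2 to 76.5 in LPS 24 h arrays and 143 to 151 in saline 24 h arrays. Lymphocyte genes were lower in 4 of 7 cases at 4 h and higher in 4 of 7 at 24 h. Platelet genes were higher in 1 and lower in 2 of 6 at 4 h, and lower in 2 of 6 at 24 h. Perivascular macrophage genes were higher in 2 of 6 at each time, which at 4 h is close to the share of all probes. Hippocampal neuron markers were higher in 5 and lower in 1 of 9 at 4 h, and lower in 6 at 24 h. Choroid plexus genes were higher in 1 and lower in 3 of 5 at 4 h, and higher in 3 at 24 h. The part of any of these shifts in the members' values was not tested.

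Across the 12 arrays, the genes whose levels followed S100a9 most closely were Sbno2 (Pearson r = 0.994), Zfp36l1, Gm1966, Tiparp and Cmpk2 (r = 0.993 each). Their log2 differences at 4 h were 2.29 for Sbno2, 0.95 for Zfp36l1, 2.91 for Gm1966, 1.76 for Tiparp and 1.98 for Cmpk2, all with smaller values at 24 h (0.26 to 1.08). Because Ccr2 had no level, Plac8 was taken in its place after the values were seen. The genes most like Plac8 were Hspb1 (r = 0.999), Ms4a6d (r = 0.995), Saa1 (r = 0.994), Ms4a6c and Gbp7 (r = 0.993 each). Saa1 differed by 2.54 at 4 h and 2.92 at 24 h, and Hspb1 by 1.33 and 1.42. These correlations run over 4 groups that share the LPS contrast and the scan session, and they carry no p.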

How the data were processed

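Hippocampal RNA from 12 mice was hybridised to one-colour Agilent arrays. The deposited array files hold a processed fluorescence intensity for each spot, made by background subtraction in Agilent Feature Extraction 10.7.3.1, per the file headers (the submitters' processing notes name version 9.1). The authors' deposited matrix holds log2 values; normexp correction with an offset of 50 and quantile normalization of the deposited raw signals gave the same values to within 0.00013 over 40929 single-spot probes, so that its scale is log2, uncentred.

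Here log2 of the processed intensity, without 926 outlier spots and with repeated spots averaged, was set relative to the array's 75th percentile. Means of the 4 groups were fitted over 12 arrays with limma 3.58.1 in R 4.3.3 (lmFit and eBayes, two-sided, Benjamini-Hochberg over 27681 probes). Where all arrays of the dimmer group were below background, the fold is a bound against each array's dimmest probe that counted as well above background, or the probe's own signal if higher. Probes were named through RefSeq by accession (27570), symbol (5419) or synonym (663), and 7522 kept the file's name. Positions are on mm9. Named list genes are up to 4 per list and comparison with the smallest adjusted p, plus some direct partners of the members. For the lists, a gene was its brightest kept probe. The members and lists were chosen with earlier results of these data known. The labels give 3 animals per group, so p-values measure the spread between animals as labelled.

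On simulated data with 27681 probes, the fit recovered 70 of 100 probes changed 1.5-fold and 87 of 100 changed 2-fold at 4 h, with 7 calls among unchanged probes, and 68, 82 and 14 at 24 h. Correlations of the deviations of same-numbered arrays of 1 time were −0.15 to 0.17, so the replicate numbers were not taken as pairs. Alternatives covered background correction, scaling, filter, probe rule, blocks, moderation, controls and leaving out each array.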

Additional observations from a re-analysis of the deposited data

Results flagged for a closer look

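For 7 of the 8 measured genes the LPS response differed between 24 h and 4 h by limma's test of the difference itself (values are the response at 24 h minus that at 4 h, log2, with Benjamini-Hochberg adjusted p). S100a9 differed by −2.58 (adjusted p = 3.48e-09) and Csf3r by 1.17 (adjusted p = 1.39e-06), both measured on all 12 arrays. The other values rest partly on signals below background, so that their size is not a fold. They were −1.72 for S100a8 (adjusted p = 5.91e-05, and −0.77 with normexp), −6.30 for Csf3 (adjusted p = 2.48e-09), −3.08 for Clec4e (adjusted p = 1.14e-07), −2.55 for Mefv (adjusted p = 0.00223) and 2.03 for Cxcr2 (adjusted p = 0.00859). The Cxcr2 value was not called with normexp (adjusted p = 0.485), quantile normalization (adjusted p = 0.523) or in the deposited matrix (adjusted p = 0.303). The times were scanned in separate sessions, so that time and session cannot be told apart. Single arrays were not screened, because each group has 3.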

How the results depend on the processing

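Over the alternatives, 732 of the members' values kept their direction and their side of the threshold, 25 were no longer called, 9 were newly called and 14 changed sign. S100a8, S100a9, Plac8 and Mefv were called higher at 4 h and at 24 h under every alternative run for them, and Csf3 and Clec4e likewise at 4 h. The 14 were Clec4e between saline times (0.0067 with quantile normalization and 0.0577 in the deposited matrix), Csf3 at 24 h (0.0188) and the Plac8 difference between times (−0.0884), both in the deposited matrix, Cxcr2 at 4 h (−0.120 with normexp, and −0.0398 to 0.950 on leaving out 1 array at a time, lowest without LPS 4 h replicate 3), Mefv between saline times (−0.878 to 0.0831 on leaving out 1 array at a time, highest without saline 24 h replicate 3) and Csf3r against the saline arrays of the other time (0.871 at 4 h, −0.274 at 24 h). With no scaling between arrays, added after seeing the data, they were Csf3r at 4 h (0.578), the Plac8 difference between times (−0.594), and S100a8 (0.593), Plac8 (0.225) and Mefv (0.700) between saline times. The cause of these changes was not tested. Between saline times, S100a8 ran from −0.81 to 0.59 over the alternatives.

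Probes called among the members and overall were 7 and 19701 at 4 h, 8 and 11873 at 24 h, 7 and 18224 for the difference between times, and 7 and 21978 between saline times. Overall counts were 12074, 4439 and 10060 with normexp for the first 3 comparisons, and 12836, 7840, 11885 and 14303 with 1 mean per gene, where fewer features were tested. At 2-fold or more they were 3488, 771, 4762 and 8079. At 24 h the overall count was 22118 against the saline arrays of the other time and 3783 with no scaling between arrays. Members called at 24 h were 5 with normexp. Requiring all 12 arrays above background left 3, 3, 2 and 3 members called. Between saline times, members called were 3 in the deposited matrix, 2 with no scaling and 4 at 2-fold or more. Leaving out 1 array at a time gave 7 to 8, 7 to 8, 7 to 8 and 6 to 8 members, and overall 18708 to 19874, 10401 to 12079, 17481 to 18215 and 21165 to 22097.

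Of all calls, 44.1% were higher at 4 h (32.7% with median scaling, 97.6% with no scaling), 44.7% at 24 h (30.5% and 86.3%), 56.0% for the difference (6.58% with no scaling) and 48.8% between saline times (27.2% with normexp, 92.5% with no scaling). The replicate numbers were not taken as pairs, although at 24 h the LPS and saline arrays of 1 number share a slide. A replicate block gave 7 members called at 4 h and 8 at 24 h, with 19423 and 11241 among all probes. With slide as a block, 7 members were called at 4 h and 7 at 24 h, with 19651 and 11596 among all probes. Csf3 at 24 h was then no longer called (adjusted p = 0.0937). Signal near background limits Cxcr2, Ccr2, Csf3 and Clec4e at 24 h and Mefv in saline, where the size of a difference is uncertain. The bounds, where given, are lower limits of a rise under the main processing and not limits of detection.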
